A study of Mus musculus with 6 samples.

Results

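The immediate early response genes described here are 34 genes known to respond early to growth factors, stress or tissue handling. They were chosen by name as immediate early or dissociation-induced genes, with earlier results of these data known. All 34 were found among the 26586 genes of the count table. Each also had enough reads to be tested, as did 16896 genes in all. The RNA came from uteri of Axin2rtTA; tetOH2BJGFP mice, in which the Axin2 promoter drives the rtTA activator and doxycycline then switches on a fluorescent histone. Ovaries were removed at an age of 4 weeks, doxycycline followed after a rest of 2 weeks, and the uteri were taken 4 days afterwards from mice aged 6 weeks. Sorting of the endometrial epithelial cells of 3 mice by fluorescence gave a GFP+ fraction per mouse, labelled Axin2+, and a GFP- fraction, labelled Axin2-. Both fractions thus share the transgenes, the ovariectomy and the doxycycline. The labels number the libraries by mouse but also speak of pooling, and if cells were pooled the p-values measure only the spread between libraries of a pool.

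Axin2 itself, the check on the labels, stood at 369, 357 and 356 CPM (reads of a gene scaled to a common library total and corrected for library composition) in the Axin2- libraries of mice 1, 2 and 3. In the Axin2+ libraries it stood at 165, 243 and 299 CPM. The difference of -0.61 ± 0.21 (SE) on the log2 scale missed the threshold (edgeR adjusted p = 0.0710), and since the lower level lies in the libraries labelled Axin2+, "Axin2+" and "Axin2-" below mean the libraries so labelled. The reads counted in genes came to 49714402 in the smallest library and 59597315 in the largest. Markers of the labelled cell type differed between the fractions. All 10 epithelial markers were higher in Axin2+, with summed levels of 3467, 2891 and 2410.0 CPM against 221, 307 and 309 CPM in Axin2-. The Axin2- libraries held plentiful smooth muscle and stromal transcripts. In bulk libraries, fewer cells of a type and less RNA per cell cannot be told apart. The Axin2+ library of mouse 1 stands apart from the other Axin2+ libraries in nearly every immediate early gene, so the change of each of the 34 genes is given with and without it. Since it was singled out by the values of these same genes, adjusted p-values without it only describe the remaining libraries. They are no independent support for a difference between the fractions.

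Immediate early genes are switched on within minutes of a stimulus without any need for new protein synthesis. Kinase cascades act on factors already bound at their promoters, such as SRF with its ELK partners and CREB, and the products are mostly transcription factors and feedback inhibitors. The transcripts are short-lived, in part through AU-rich stretches of the 3′ untranslated region that recruit decay proteins. In the uterus Fos, Jun, Myc and Egr1 are known as early targets of estrogen. Many of these genes also rise when solid tissue is digested into single cells for sorting.

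Because rapid decay is a hallmark of these transcripts, a site with its surroundings is shown for 5 genes whose values are given below. The sequences come from GENCODE M21 transcripts on GRCm38, and the capitals mark TATTTAT, a core of the AU-rich element. In the order of their roles the sites are:
Fos: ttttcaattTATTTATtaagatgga
Dusp1: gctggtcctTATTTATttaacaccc
Zfp36: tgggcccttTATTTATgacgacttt
Ier3: tctaattaaTATTTATgTATTTATg
Gem: aagagtcagTATTTATtcataggaa
The motif occurred in the 3′ untranslated region of 21 of 34 members (61.76%), against 26.47% of 18910 protein-coding genes of the table. At least 2 copies were found in 11 members (32.35%) and in 9.799% of all genes. Pooled over bases, members held 0.8354 and all genes 0.3164 copies per kilobase, with median lengths of the region of 1092 and 857 bases. The members were also compact. Their median span was 5368 bases against 18153, and 27 of 34 (79.41%) had at most 3 introns, against 31.83%. Jun, Junb, Jund, Ier2, Ier5 and Rhob, 6 members in all, have no intron (17.65%, against 5.59%).

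The promoters shown are those of Fos, Egr2, Nr4a1 and Dusp1, which represent a FOS factor, an EGR factor, the member that differed most between libraries, and a feedback phosphatase. They are RefSeq sequences on GRCm38.p6, written 5′ to 3′ on the gene's strand and ending just before the RefSeq start site. Dusp1 ends earlier because its last bases are exon in GENCODE. The windows are chr12:85473640-85473889 (plus strand, upstream of the gene) for Fos and chr10:67537619-67537868 (plus) for Egr2. Those of Nr4a1 and Dusp1 are chr15:101266596-101266845 (plus) and chr17:26508520-26508722 (minus). The last 3 windows lie in introns of longer GENCODE transcripts of the same genes. Egr2 has 5 RefSeq windows, and the 1 shown was chosen because no other held more kinds of the motifs searched. Fos, Nr4a1 and Dusp1 have 1 window each. Capitals mark the CArG box bound by SRF, the cyclic AMP response element TGACGTCA or its half-site TGACG, the EGR motif GCGNGGGCG and the TATA motif TATAAA, on either strand:
Fos promoter: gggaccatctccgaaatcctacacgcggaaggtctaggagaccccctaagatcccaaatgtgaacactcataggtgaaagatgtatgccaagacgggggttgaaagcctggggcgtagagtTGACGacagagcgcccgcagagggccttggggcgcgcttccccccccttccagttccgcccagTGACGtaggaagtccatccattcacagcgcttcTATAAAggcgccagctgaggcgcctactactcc
Egr2 promoter: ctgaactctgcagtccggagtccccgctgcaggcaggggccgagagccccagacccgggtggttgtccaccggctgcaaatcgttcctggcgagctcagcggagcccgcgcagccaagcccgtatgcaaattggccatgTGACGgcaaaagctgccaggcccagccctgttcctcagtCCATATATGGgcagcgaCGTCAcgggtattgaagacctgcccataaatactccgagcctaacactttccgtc
Nr4a1 promoter: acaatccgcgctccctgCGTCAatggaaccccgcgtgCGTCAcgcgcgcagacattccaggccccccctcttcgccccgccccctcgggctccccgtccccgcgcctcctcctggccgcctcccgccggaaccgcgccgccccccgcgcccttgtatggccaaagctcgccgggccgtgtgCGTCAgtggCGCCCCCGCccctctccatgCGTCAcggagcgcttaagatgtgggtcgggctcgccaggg
Dusp1 promoter: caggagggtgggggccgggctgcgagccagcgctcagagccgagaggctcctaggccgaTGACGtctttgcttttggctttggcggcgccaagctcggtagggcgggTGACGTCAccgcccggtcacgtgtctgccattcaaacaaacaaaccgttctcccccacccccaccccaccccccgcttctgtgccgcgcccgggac
Of the 34 members 27 had a RefSeq window, 37 windows in all, and each motif was searched in the 250 bases before the start. A gene was counted if any of its windows held the motif, and all 27025 genes had 32851 windows. TGACG was present for 16 of these 27 genes (59.3%), among them Fos, Junb, Atf3, Egr2 and all 3 Nr4a genes, against 19.8% of 27025 genes. The full TGACGTCA, which contains the half-site, was present for Btg2, Dusp1 and Maff (11.1%, against 1.77%). A CArG box lay before Dusp5, Egr2 and Zfp36 (11.1%, against 1.62%), and the EGR motif before 11 genes (40.7%, against 5.33%). TGANTCA, the motif of the AP-1 complex that FOS and JUN proteins form, was found only for Csrnp1 (3.7%, against 7.82%), and TATAAA for Fos, Gadd45b and Nr4a2 (11.1%, against 14.3%). The members' windows were richer in G and C, with a median of 64 percent against 52.4 percent over 32851 windows. The part of base composition in these shares was not tested. A match is a stretch of letters and not a measured binding site. Sites farther upstream were not searched, so a gene without a match here may still hold the motif there.

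Between the fractions, 12 of the 34 genes fell in Axin2+ and none rose at an edgeR adjusted p under 0.05. Of all 16896 genes tested, 12.8% were called lower and 14.5% higher. Those that fell were Junb, Egr1, Egr3, Klf4, Myc, Per1, Socs3, Btg2, Ier2, Ier5, Rhob and Gem. At an unadjusted p under 0.05, 17 were lower and 0 higher, against 19.8% and 20.8% of all genes. DESeq2 called 16 lower and 0 higher, against 17.7% and 18.5% of the 16870 genes it gave an adjusted p. The members Atf3, Nr4a1, Zfp36 and Csrnp1 had none and could not be called. The median log2 fold change over the members was -1.16, against -0.01 over all genes. This count rested on single libraries. Without the Axin2+ library of mouse 1, 32 members were lower and 0 higher (all but Fosl1 and Ier3), against 11.0% of 17325 genes in the lower direction and 11.0% in the higher. The median log2 fold change was then -2.01. That library was picked from the values of these genes, and its removal narrows the spread on which the p-values rest. The count without it is thus a description and not a test. Leaving out instead the Axin2- library of mouse 1, 2 or 3 gave 5, 6 or 3 lower members, against 7.35%, 10.3% or 7.54% of all genes. Leaving out the Axin2+ library of mouse 2 or 3 gave 3 or 5, against 6.04% or 10.4%.

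The summed level of the 34 genes shows the same split. It was 21789, 27484 and 23367 CPM in the Axin2- libraries of mice 1, 2 and 3. In Axin2+ it was 17480.4 CPM for mouse 1, 5295 for mouse 2 and 5377 for mouse 3. The Axin2+ library of mouse 1 thus lay somewhat below the Axin2- libraries and the other pair far lower. As shares of all reads, the members took 2.12, 2.64 and 2.09 percent in Axin2- and 1.83, 0.558 and 0.581 percent in Axin2+. The Axin2+ libraries of mice 2 and 3 both lay below all 3 Axin2- libraries for 33 of 34 members, Ier3 being the exception, which holds for 27.6% of all genes. All 3 Axin2+ libraries lay below all 3 Axin2- libraries for 18 members, which holds for 23.2% of all genes.

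**Figure D1:**
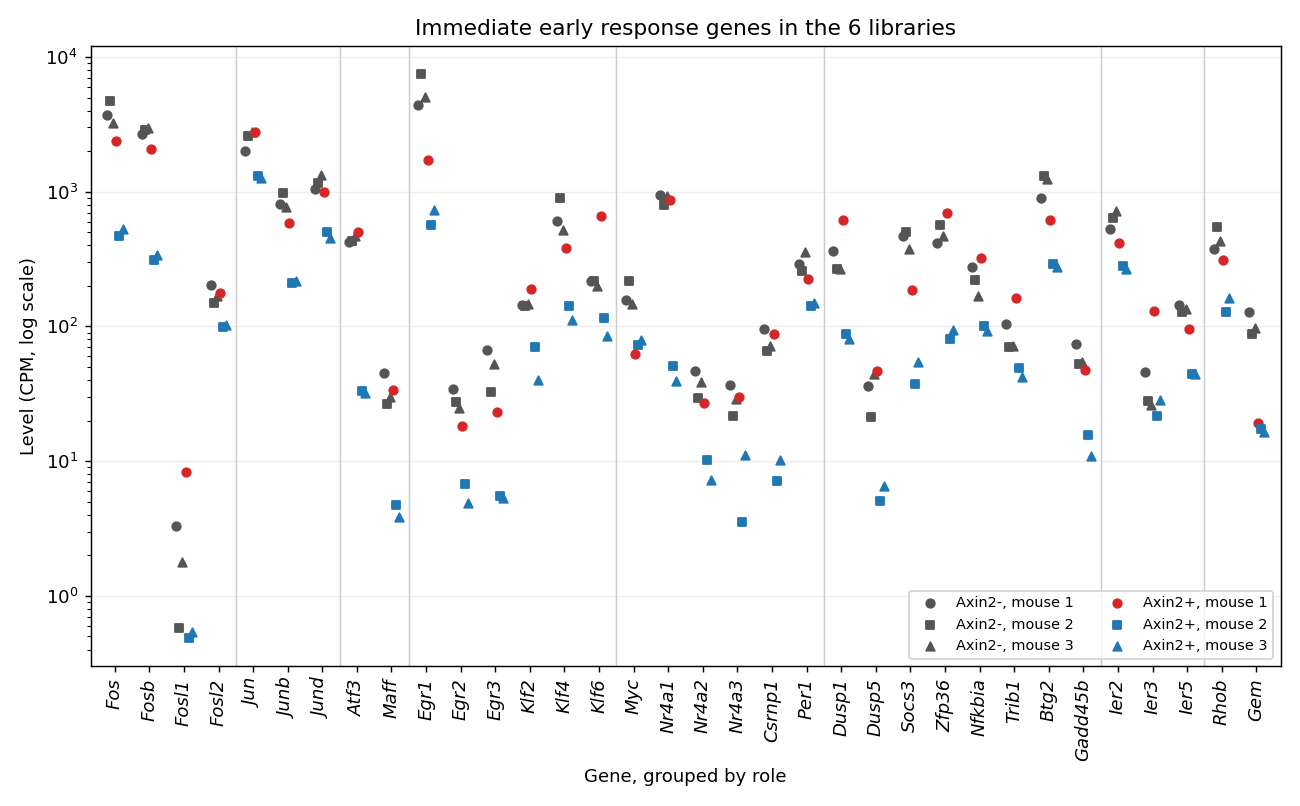
Level of each of the 34 genes (CPM, log scale) in the 6 libraries, 1 point per library, grouped by role from FOS family on the left to GTPases on the right. The Axin2+ points of mice 2 and 3 (blue) lie below the Axin2- points (grey) for every gene except Ier3. The Axin2+ point of mouse 1 (red) lies above all grey points for 11 genes, within their range for 5 and below it for 18. Heights compare libraries within a gene, since CPM carry no correction for length.

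Levels of different genes were compared per kilobase of exon. Fos led in Axin2- with 1643 ± 319.8 CPM per kilobase (SD, n = 3 libraries), followed by Egr1 with 1254 ± 361, and the ranges of the 2 genes overlapped. Jun at 769 ± 123 and Jund at 706 ± 89.9 CPM per kilobase came next and also overlapped. Fosb, Btg2, Ier2 and Junb followed at 455 ± 25.4, 419 ± 79.5, 412 ± 64.6 and 371 ± 46.4, each overlapping its neighbour. In the mean of the Axin2+ libraries of mice 2 and 3 the order was another, with Jun at 402 and Jund at 286 CPM per kilobase ahead of Fos at 212 and Egr1 at 145. Fosl1 was the lowest member in Axin2-, at 0.930 ± 0.672 CPM per kilobase.

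Among the FOS family, which pairs with JUN proteins to form the AP-1 transcription factor, none passed with all 6 libraries and 3 of 4 were lower without the Axin2+ library of mouse 1. Fos (ENSMUSG00000021250, chromosome 12, 85473890 to 85477273, plus strand, GRCm38) stood at 3682, 4690.3 and 3219 CPM in the Axin2- libraries of mice 1, 2 and 3 and at 2389, 469 and 529 CPM in the Axin2+ libraries. All Axin2+ libraries lay below all Axin2- libraries, yet that of mouse 1 was 4.79 times the mean of the other pair. Its log2 fold change was -1.77 ± 0.64 (SE, as in all values of this form; adjusted p = 0.0780), and -2.95 ± 0.26 (adjusted p = 0.000792) without that library. Fosb, a close relative, had 2670.4, 2870.3 and 2983 CPM in Axin2- and 2069, 313 and 339.7 CPM in Axin2+. The Axin2- libraries agree within a narrow range while the Axin2+ libraries spread widely, and the log2 fold change was -1.65 ± 0.72 (adjusted p = 0.133) or -3.12 ± 0.21 (adjusted p = 0.000422) without mouse 1's Axin2+ library. Fosl2, the most stable of the 4 between libraries, ran at 204, 148 and 169.5 and 176, 99.2 and 102 CPM, with a change of -0.47 (adjusted p = 0.201) over all 6 and -0.79 (adjusted p = 0.0170) without mouse 1's Axin2+ library. Fosl1, which encodes the FOS relative FRA1, was rare, at 3.31, 0.577 and 1.79 CPM and 8.25, 0.491 and 0.540 CPM. Its highest level was in the Axin2+ library of mouse 1 and it passed in neither fit (0.71 and -1.87, adjusted p = 0.688 and 0.147). Fosl1 overlaps Ccdc85b on the opposite strand over 2767 bases, so its few reads may belong to either gene, since the strand setting of the counting is not given.

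The JUN family gives the other side of AP-1. Junb fell, from 812, 975 and 774 CPM in the Axin2- libraries to 581, 209 and 216 CPM in the Axin2+ libraries. The groups did not overlap, and the log2 fold change was -1.35 ± 0.41 (adjusted p = 0.0473), or -2.003 ± 0.18 (adjusted p = 0.000861) without mouse 1's Axin2+ library. Jund, the family's more steadily expressed member, had 1041, 1155 and 1338 CPM and 992, 505 and 449.6 CPM. Only the Axin2+ libraries of mice 2 and 3 lay far below Axin2-, and the change of -0.86 ± 0.31 did not pass (adjusted p = 0.0797) but did without mouse 1's Axin2+ library (-1.30, adjusted p = 0.00432). Jun was at 2010.0, 2598 and 2751 CPM in Axin2- and at 2770.3, 1308 and 1254 CPM in Axin2+. Here the Axin2+ library of mouse 1 was the highest of all 6, and the log2 fold change moved from -0.46 ± 0.34 (adjusted p = 0.343) to -0.94 ± 0.22 (adjusted p = 0.0234) when it was left out. The Axin2- mean was 1.91, 2.47 and 4.01 times the mean of the low Axin2+ pair for Jun, Jund and Junb, against 7.74 times for Fos and 8.70 times for Fosb.

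Atf3 and Maff are bZIP factors that dimerize with AP-1 proteins or with each other's relatives. Atf3, a stress-induced repressor, was at 426, 429 and 471 CPM in Axin2- and at 500.1, 32.96 and 32.05 CPM in Axin2+. The Axin2+ library of mouse 1 was above every Axin2- library and 15.4 times the mean of the other Axin2+ pair. With all libraries the change was -1.23 ± 1.01 (adjusted p = 0.406), and without that library -3.76 ± 0.16 (adjusted p = 0.000323). Maff, a small MAF protein, ran at 45.5, 26.8 and 30.1 CPM and 34, 4.76 and 3.87 CPM, with mouse 1's Axin2+ library inside the Axin2- range. With every library in the fit its change was -1.26 ± 0.80 (adjusted p = 0.284), and without that one -2.98 ± 0.30 (adjusted p = 0.00119).

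The EGR zinc finger factors were lower in every Axin2+ library, that of mouse 1 included. Egr1 (ENSMUSG00000038418), a factor induced by growth factors and by estrogen in the uterus, was at 4402, 7459.7 and 5008 CPM in the Axin2- libraries. In the Axin2+ libraries of mice 1, 2 and 3 it was at 1717, 571 and 729.9 CPM. The groups were far apart, and Egr1 fell by 2.48 ± 0.46 on the log2 scale (adjusted p = 0.00858), or by 3.11 ± 0.33 (adjusted p = 0.00138) without mouse 1's Axin2+ library. Egr3 fell as well, from 66.6, 32.4 and 52.96 CPM to 23.03, 5.49 and 5.30 CPM, with a log2 fold change of -2.17 ± 0.62 (adjusted p = 0.0395), and -3.23 ± 0.33 (adjusted p = 0.00128) without that library. Egr2 stood at 34.2, 27.3 and 24.98 CPM and 18.3, 6.74 and 4.89 CPM. Its groups did not overlap either, and its change of -1.53 ± 0.48 narrowly missed the threshold (adjusted p = 0.0524), passing with the mouse as a replicate block (0.0211). Without mouse 1's Axin2+ library the change of Egr2 was -2.31 ± 0.25 (adjusted p = 0.00144).

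The KLF zinc finger factors stood on either side of Axin2- in the Axin2+ library of mouse 1, with Klf4 below and Klf2 and Klf6 above. Klf4, which holds epithelial cells in a differentiated state, fell from 604, 899.6 and 519 CPM to 379.6, 142 and 112 CPM, with non-overlapping groups and a log2 fold change of -1.68 ± 0.48 (adjusted p = 0.0396), which was -2.41 ± 0.29 (adjusted p = 0.00209) without mouse 1's Axin2+ library. Klf2, best known from endothelium and resting T cells, was at 143, 142 and 147 CPM in Axin2- and at 188, 70.4 and 39.96 CPM in Axin2+. Klf6, a widely expressed injury-response factor, was at 216, 216 and 201 CPM and 663, 116 and 84.4 CPM. For both, the Axin2- libraries were nearly equal, mouse 1's Axin2+ library was the highest and the other pair the lowest. Klf6 went from a log2 fold change of 0.45 ± 0.72 (adjusted p = 0.682) to -1.07 ± 0.17 (adjusted p = 0.00592) without that library, and Klf2 from -0.53 to -1.38 (adjusted p = 0.468 and 0.00816).

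Nr4a1 (ENSMUSG00000023034, chromosome 15, 101254269 to 101274795, plus strand) had the widest gap of the 34 between the Axin2+ library of mouse 1 and the other pair. This orphan nuclear receptor stood at 947, 790.4 and 928 CPM in the Axin2- libraries. In the Axin2+ libraries it stood at 862, 50.8 and 39.2 CPM, the first inside the Axin2- range and 19.1 times the mean of the other pair. The change over all 6 libraries was -1.49 ± 1.10 (adjusted p = 0.353). Without mouse 1's Axin2+ library it was -4.30 ± 0.22 (adjusted p = 0.000342). Its relatives Nr4a2, at 46.9, 29.3 and 38.8 and 26.9, 10.2 and 7.28 CPM, and Nr4a3, at 36.8, 21.5 and 28.9 and 29.98, 3.51 and 11.1 CPM, showed a narrower gap. Neither passed with all libraries (log2 fold changes of -1.37 and -0.97, adjusted p = 0.0730 and 0.322). Both did without that one (-2.13 and -1.99, adjusted p = 0.00268 and 0.0309). Nr4a2 also passed with the mouse as a replicate block (0.0300).

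**Figure D2:**
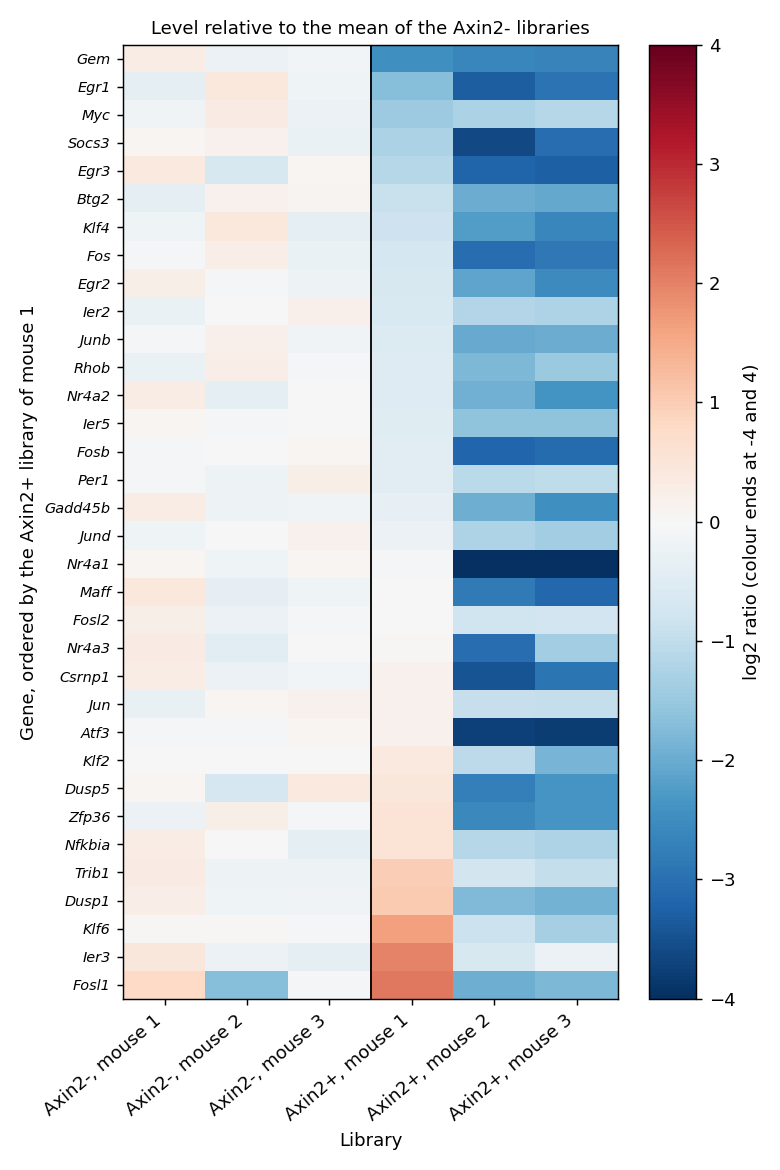
log2 ratio of each library's level to the mean of the 3 Axin2- libraries, 1 row per gene and 1 column per library, with blue for lower and red for higher (colours end at -4 and 4). Rows are ordered by the Axin2+ library of mouse 1, which runs from blue for Gem, Egr1 and Myc to red for Klf6, Ier3 and Fosl1, while the columns of Axin2+ mice 2 and 3 are blue in nearly every row.

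In 1 factor this split was missing. Myc (ENSMUSG00000022346, chromosome 15, 61985391 to 61990374, plus strand), a transcription factor that drives cell growth, was at 158, 217 and 147 CPM in Axin2- and at 62.97, 72.7 and 79.8 CPM in Axin2+. Its 3 Axin2+ libraries lay close together and all below Axin2-, and it was the only member for which the Axin2+ library of mouse 1 was not the highest of the 3. Myc fell by 1.28 ± 0.18 on the log2 scale (adjusted p = 0.00280), and by 1.19 ± 0.20 (adjusted p = 0.00713) without that library. Per1, a core gene of the circadian clock that also responds acutely to hormones, fell from 289, 259 and 355 CPM to 224, 142 and 148 CPM (-0.82 ± 0.21, adjusted p = 0.0295), with groups that did not overlap. Its change without mouse 1's Axin2+ library was -1.05 ± 0.17 (adjusted p = 0.00692). Csrnp1, a nuclear protein first described as an AXIN1-induced gene, was at 95.4, 66.01 and 72.1 CPM and 87.5, 7.16 and 10.2 CPM. The Axin2+ library of mouse 1 lay inside the Axin2- range, and the change was -1.15 (adjusted p = 0.370), or -3.16 (adjusted p = 0.000640) without it. The annotated span of Csrnp1 lies wholly within that of Cx3cr1, a macrophage chemokine receptor gene on the same strand, which stood at 8.52, 2.24 and 8.03 CPM in Axin2- and 72.1, 29.4 and 12.2 CPM in Axin2+. The part of shared reads in the Csrnp1 values was not tested.

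Of the 8 inhibitors of signalling, mRNA stability or cell growth, 2 fell with all libraries (Socs3 and Btg2) and all 8 were lower without the Axin2+ library of mouse 1. Socs3, which shuts off cytokine receptor signalling, was at 471, 502 and 373 CPM in Axin2- and 186, 37.1 and 54.6 CPM in Axin2+. Its groups did not overlap and its log2 fold change was -2.28 ± 0.58 (adjusted p = 0.0272), or -3.29 ± 0.25 (adjusted p = 0.000575) without that library. Btg2, an antiproliferative protein, went from 901, 1305 and 1245 CPM to 620.3, 289 and 278 CPM, also without overlap (-1.54 ± 0.35, adjusted p = 0.0173, and -2.02 ± 0.22, adjusted p = 0.00160, without that library). Gadd45b, a stress sensor that acts on MAP kinase kinases, was at 73.9, 52.7 and 54.4 CPM and 47.8, 15.7 and 11.00 CPM. Though its groups did not overlap, it did not pass (-1.28, adjusted p = 0.111), except with the mouse as a replicate block (0.0339) or without mouse 1's Axin2+ library (-2.17, adjusted p = 0.00171).

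The other 5 inhibitors were highest of all in the Axin2+ library of mouse 1. Dusp1 (ENSMUSG00000024190), a phosphatase that inactivates MAP kinases, stood at 360.0, 267 and 269 CPM in Axin2- and 619, 87.8 and 80.6 CPM in Axin2+. Zfp36, which binds AU-rich elements such as those shown above and speeds decay, stood at 414, 564 and 468 CPM and 699, 80.6 and 93.3 CPM. Mouse 1's Axin2+ library exceeded the mean of the other pair 7.35-fold for Dusp1 and 8.04-fold for Zfp36, so that the log2 fold changes of -0.19 ± 0.76 and -0.73 ± 0.79 did not pass (adjusted p = 0.878 and 0.535). Without it they were -1.82 ± 0.19 and -2.47 ± 0.20 (adjusted p = 0.00128 and 0.000625). Dusp5, a nuclear phosphatase of ERK, had 36.1, 21.2 and 44.5 and 46.9, 5.10 and 6.55 CPM. Nfkbia, the inhibitor of NF-κB, had 274, 221 and 168 and 322, 101 and 93.1 CPM, and Trib1, a pseudokinase that promotes protein degradation, 104, 70.4 and 71.6 and 163, 48.97 and 41.9 CPM. These 3 had log2 fold changes of -0.80, -0.36 and 0.05 with all libraries (adjusted p = 0.508, 0.617 and 0.955). Without mouse 1's Axin2+ library the values were -2.54, -1.19 and -0.85 (adjusted p = 0.00348, 0.0101 and 0.0290).

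The small IER proteins split. Ier2, a nuclear protein, fell from 526, 635 and 722 CPM to 415, 279 and 267 CPM (-0.97 ± 0.22, adjusted p = 0.0165), and its relative Ier5 from 144, 129 and 134 CPM to 96.5, 44.6 and 44.4 CPM (-1.13 ± 0.31, adjusted p = 0.0331). In both the groups did not overlap. Without mouse 1's Axin2+ library the changes were -1.20 ± 0.19 for Ier2 and -1.61 ± 0.13 for Ier5 (adjusted p = 0.00542 and 0.000625). Ier3, which protects cells from apoptosis, was at 45.7, 28.2 and 26.3 CPM in Axin2- and 131, 21.6 and 28.4 CPM in Axin2+. Its Axin2+ library of mouse 1 stood far above the 5 others, which overlapped, and it passed neither with it (0.85, adjusted p = 0.382) nor without it (-0.42, adjusted p = 0.333).

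Both GTPases fell. Gem (ENSMUSG00000028214, chromosome 4, 11704457 to 11714752, plus strand), which restrains calcium channels, stood at 129, 88.6 and 97.98 CPM in Axin2- and 19.3, 17.2 and 16.3 CPM in Axin2+. The Axin2+ libraries lay close together and far below Axin2-, with a log2 fold change of -2.58 ± 0.17 (adjusted p = 0.000254), the smallest p among the members, and -2.65 ± 0.20 (adjusted p = 0.000599) without mouse 1's Axin2+ library. Rhob, a GTPase of endosomes, stood at 378, 545 and 430.3 CPM and 313, 129 and 163 CPM. It had groups that did not overlap and a change of -1.16 ± 0.34 (adjusted p = 0.0416), which did not pass with the mouse as a replicate block (adjusted p = 0.0652) and was -1.63 ± 0.22 (adjusted p = 0.00303) without mouse 1's Axin2+ library. Gem and Myc were the only members that passed in all 19 alternative settings. Of the others called with all libraries, Egr1 passed in 17, Btg2 and Ier2 in 15, and Per1 in 13. Socs3 and Ier5 passed in 12, Egr3 and Klf4 in 11, and Junb and Rhob in 10.

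**Figure D3:**
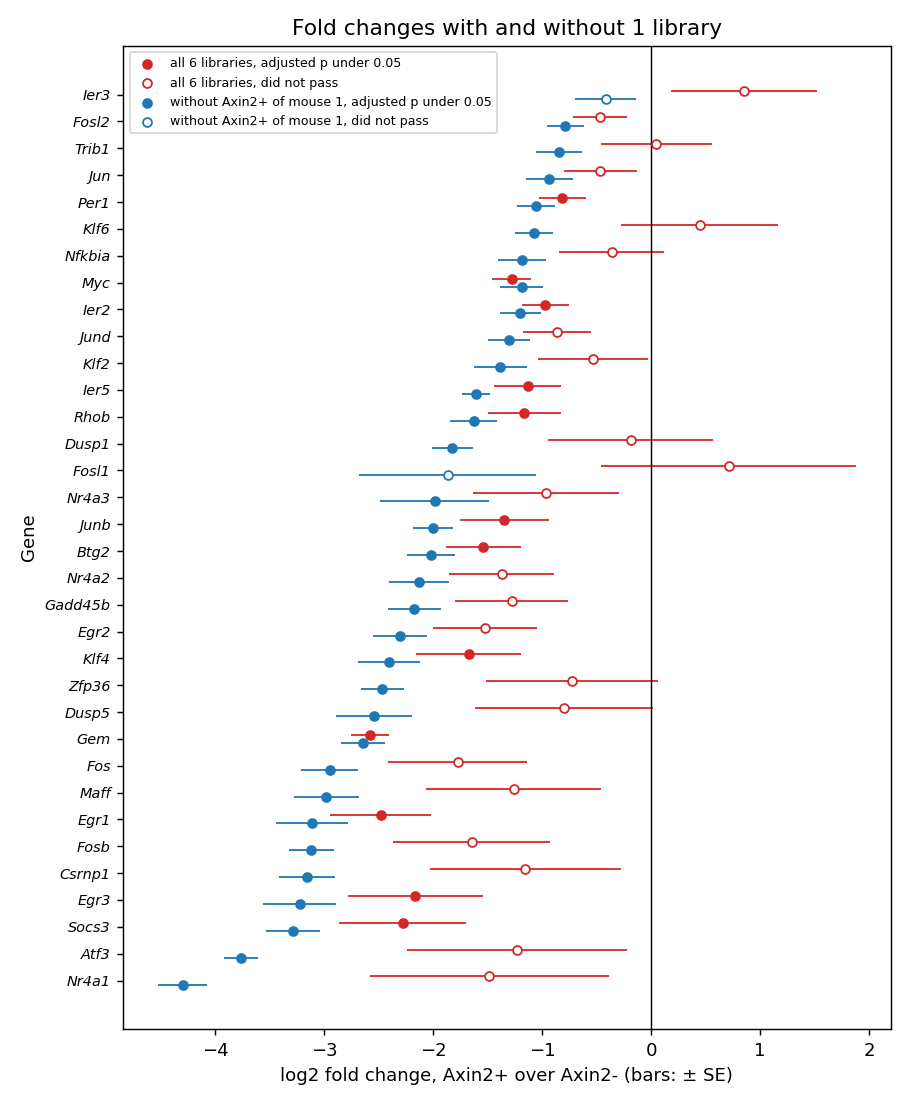
log2 fold change of Axin2+ over Axin2- for each gene, with bars of ± SE, from all 6 libraries (red) and without the Axin2+ library of mouse 1 (blue). Filled points have an adjusted p under 0.05. Filled red points number 12 and filled blue points 32, and the blue bars are shorter for every gene except Myc and Gem.

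The spread between libraries of a fraction was uneven. Within Axin2- the coefficient of variation of a member had a median of 18.9%, close to the 20.6% of all genes tested. Within Axin2+ the median was 79.5%, against 17.4% for all genes. It was larger within Axin2+ than within Axin2- for 32 of 34 members, against 44.2% of all genes, with Myc and Gem as the exceptions. The median SD of log2 CPM was 0.268 within Axin2- and 1.09 within Axin2+, and the latter was 0.136 without the Axin2+ library of mouse 1. Leaving out the Axin2- library of mouse 1 likewise lowered the Axin2- value, from 0.268 to 0.131. In each fraction the libraries of mice 2 and 3 thus lay closest together on these genes.

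Set against the mean of the other Axin2+ pair, the Axin2+ library of mouse 1 was higher by a median of 1.81 on the log2 scale over the members, while over all genes the median was -0.03. At least 2-fold higher levels were seen for 29 of 34 members, against 9.61% of 16715 genes with a finite ratio. The exceptions were Fosl2, Per1, Ier2 and Gem, at 1.75, 1.54, 1.52 and 1.15 times, and Myc at 0.826 times. For the Axin2+ libraries of mice 2 and 3, each against its other pair, the share over all genes was 2.70% and 4.60%. The shares at least 2-fold lower were 6.93%, 6.65% and 8.62% for mice 1, 2 and 3. Over all genes too, the largest share of higher levels was thus in the Axin2+ library of mouse 1. The same library was above the Axin2- range for 11 members, within it for 5 and below it for 18. Over all genes the shares were 36.2%, 27.1% and 36.7%, so the members' share above was near that of all genes. Those above were Fosl1, Jun, Atf3, Klf2, Klf6, Dusp1, Dusp5, Zfp36, Nfkbia, Trib1 and Ier3. Those below include all EGR genes, Fos, Fosb, Junb, Socs3 and Btg2.

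**Figure D4:**
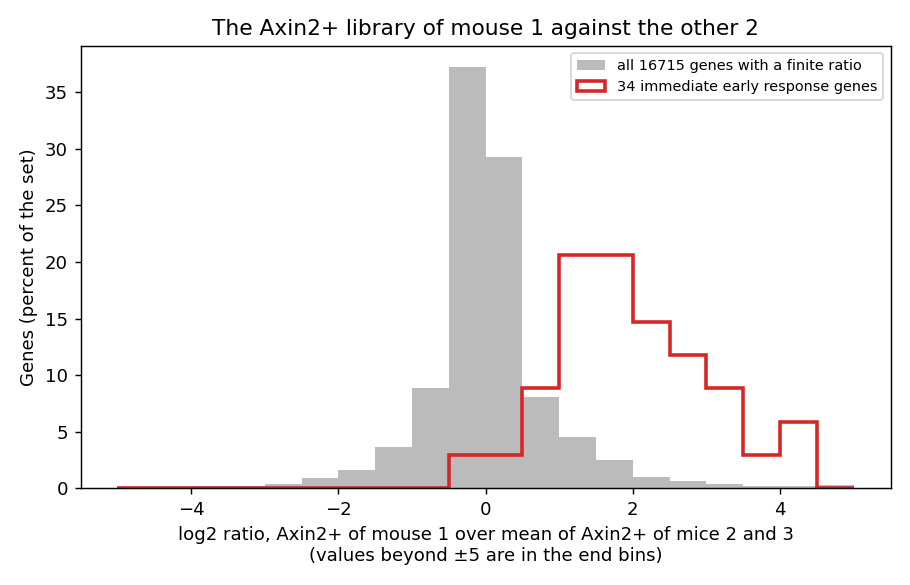
Distribution of the log2 ratio of the Axin2+ library of mouse 1 to the mean of the Axin2+ libraries of mice 2 and 3, as percent of genes per bin, for all 16715 genes with a finite ratio (grey) and the 34 immediate early response genes (red outline). The grey distribution centres near 0 and the red one at 1.81.

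Within each mouse, the Axin2+ library was lower than the Axin2- library for 23, 34 and 33 of 34 members in mice 1, 2 and 3, with medians of -0.32, -2.04 and -2.02 on the log2 scale. For all genes the shares were 49.9, 50.5 and 50.1 percent. In mouse 1 all 6 genes of the group with Myc, Csrnp1, Per1 and the Nr4a receptors were lower, as against 3 of the 8 inhibitors. Among Axin2- libraries, mouse 1 held the highest level of all 6 libraries for 11 members, mouse 2 for 8 (Fos, Junb, Egr1, Klf4, Myc, Socs3, Btg2 and Rhob) and mouse 3 for 4. Of all 16896 genes tested they held it for 2679, 3147 and 3145. The Axin2+ library of mouse 1 held the highest level for the 11 members named above, and those of mice 2 and 3 for 0. Over all genes the numbers were 3446, 2437 and 2042.

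Genes of the same pathway were read from lists. Of 50 other primary response genes 48 were tested, of which 10 fell and 3 rose (Dusp6, Hes1 and Id2, named after their values were seen). Without mouse 1's Axin2+ library 29 fell and 2 rose. Over all genes tested 12.8% were lower and 14.5% higher, or 11.0% each way without that library. In 28 of the 48 that library was at least 2-fold above the other Axin2+ pair, against 9.61% of all genes with a finite ratio. Summed, these genes gave 6429, 5671 and 5324 CPM in Axin2- and 5946, 2726 and 2530.5 CPM in Axin2+. Here mouse 1's Axin2+ library lay within the Axin2- range, and the other pair again lay far lower. As with Gem, some fell with the 3 Axin2+ libraries close together. Klf9, a glucocorticoid- and progesterone-responsive factor, went from 265, 351 and 332 CPM to 86.2, 86.5 and 108 CPM (-1.75 ± 0.16, adjusted p = 0.000602), and Nab2, a corepressor of EGR proteins, from 75.6, 78.1 and 68.5 CPM to 38.4, 35.3 and 36.3 CPM (-1.01 ± 0.11, adjusted p = 0.00107). Ier5l and Id3, a dominant-negative helix-loop-helix protein, also fell (log2 -1.05 and -1.34, adjusted p = 0.00687 and 0.00384).

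The 25 upstream kinases and factors showed no such split. In 0 of 25 was the Axin2+ library of mouse 1 at least 2-fold above the other pair, against 9.61% of all genes with a finite ratio. Mkl2, a coactivator of SRF, rose from 92.7, 96.6 and 89.00 CPM to 191, 218 and 192 CPM (1.11 ± 0.11, adjusted p = 0.000761), and the kinase Rps6ka1 from 12.00, 13.2 and 17.1 CPM to 102, 76.6 and 48.6 CPM (2.42 ± 0.29, adjusted p = 0.00156). The JNK gene Mapk8 and the nuclear kinase gene Rps6ka5 fell, with log2 fold changes of -0.74 and -0.70 (adjusted p = 0.00866 and 0.0216). Of 15 other bZIP genes 4 fell (Atf4, Atf5, Maf and Bach2), against 12.8% of all genes tested.

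Of 15 heat shock genes, another class that tissue dissociation can raise, 4 fell, against 12.8% of all genes tested. Hspa1a, the inducible HSP70, went from 131, 126 and 84.97 CPM to 35.2, 24.96 and 27.5 CPM (-1.96 ± 0.21, adjusted p = 0.00103). Its Axin2+ libraries lay together, with mouse 1 at 1.34 times the mean of the other pair, and Hspa1b, Dnajb1 and Dnajb4 had log2 fold changes of -1.29, -0.83 and -0.996 (adjusted p = 0.00367, 0.0493 and 0.0414). The summed heat shock level was 5751, 7114 and 4995 CPM in Axin2- and 5825, 5670.4 and 6044 CPM in Axin2+, which overlap. At least 2-fold higher levels in mouse 1's Axin2+ library than in the other pair were seen for 2 of 15. The share was 9.61% over all genes with a finite ratio, and 29 of the 34 immediate early genes showed it.

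**Figure D5:**
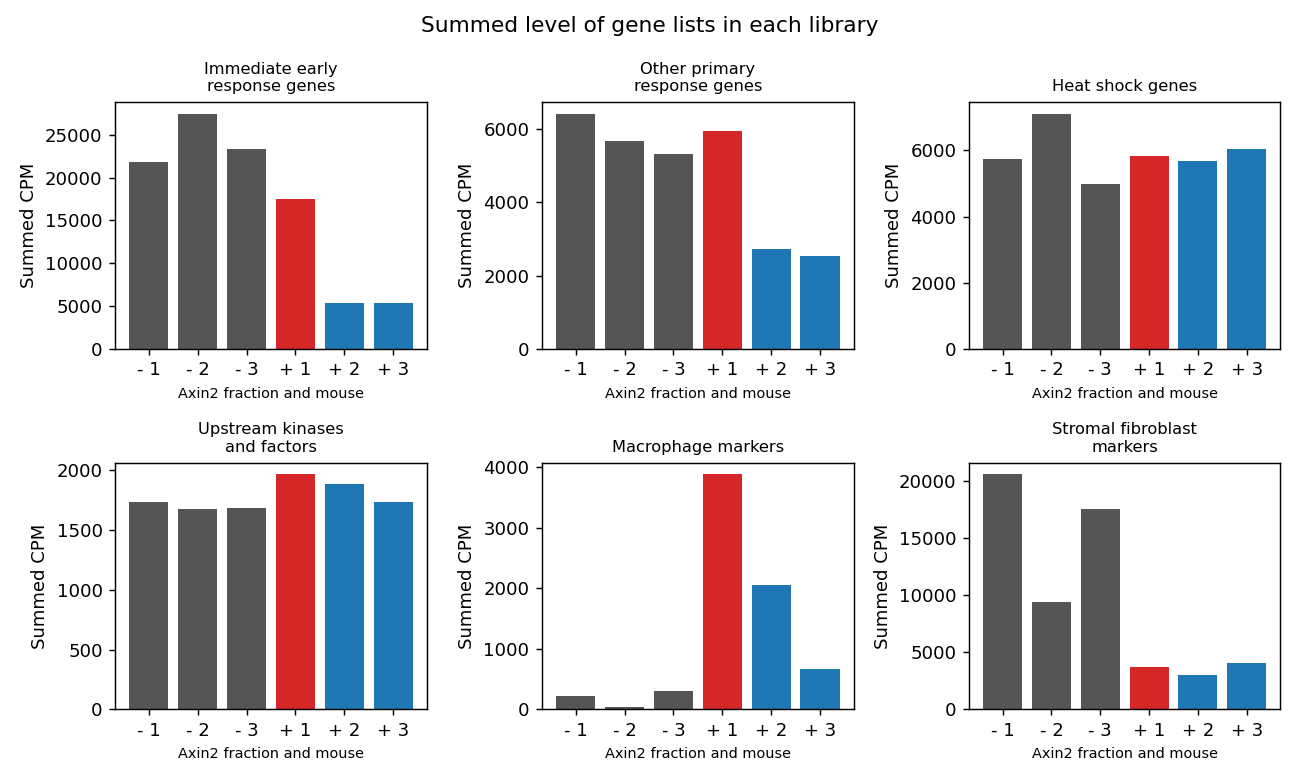
Summed level (CPM) of 6 gene lists in each library, 1 bar per library, with Axin2- in grey, Axin2+ of mouse 1 in red and Axin2+ of mice 2 and 3 in blue. The immediate early and other primary response genes share a high red bar and low blue bars. The heat shock and upstream sums overlap between fractions, and the macrophage and stromal markers differ between them.

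Transcripts of other cell types moved with the fractions and in part with mouse 1's Axin2+ library. All 8 smooth muscle markers and 7 of 8 stromal markers fell. Of all genes tested, 12.8% were lower and 14.5% higher. The summed smooth muscle level was 6358, 2300.3 and 4976 CPM in Axin2- and 221, 251 and 337 CPM in Axin2+, and the stromal level 20628, 9442 and 17613 CPM and 3729.7, 3013 and 4106 CPM. For both, the Axin2+ library of mouse 1 lay beside the other Axin2+ libraries. All 8 macrophage markers rose (5 without that library), with sums of 224, 47.3 and 307 CPM in Axin2- and 3886, 2057 and 670.4 CPM in Axin2+. Mouse 1's Axin2+ library was at least 2-fold above the mean of the other pair for all 8, against 9.61% of all genes with a finite ratio. The immediate early sums of the Axin2+ libraries of mice 1, 2 and 3 were 17480, 5295 and 5377 CPM. Lymphocyte markers were low throughout, with sums of 32.4, 11.7 and 18.9 CPM and 24.3, 4.95 and 3.07 CPM, and 4 of 8 fell. For 7 of the 8, mouse 1's Axin2+ library was at least 2-fold above the mean of the other pair. Pericyte markers fell in 4 of 6 cases, endothelial markers rose in 6 of 8, and of 6 mesothelial markers 3 rose and Wt1 fell. The pericyte sums were 406, 310.1 and 560.0 CPM in Axin2- and 56.4, 145 and 153 CPM in Axin2+. Of 6 pericyte markers 4 were at least 2-fold lower in mouse 1's Axin2+ library than in the other pair, against 6.93% of all genes. The mesothelial sums were 224, 174 and 186 CPM and 471, 178 and 273 CPM, with 4 of 6 markers at least 2-fold higher in that library. No marker was at 0 in all libraries, and the part of these cell types in the values of the immediate early genes was not tested.

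The share of ribosomal RNA reads (14.7 to 23.8 percent) and of read pairs assigned to 1 feature (29.26 to 38.86 percent) put the Axin2+ library of mouse 1 at the ends of both ranges, with 14.7 and 38.86 percent. Their part in the result was not tested. At an FDR under 0.05 the authors' deposited table has 13 members lower and 0 higher, the 12 named above and Egr2, out of 2224 lower and 2440 higher genes among 15469.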

How the data were processed

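RNA of 6 libraries, 2 fractions from each of 3 mice, was sequenced after depletion of ribosomal RNA. The deposited table holds raw read counts by gene, as whole numbers. Tools named in the submitters' processing notes are STAR 2.5.3a, bcl2fastq 2.20.0.422, StringTie 1.3.3, edgeR 3.22.5 and, from Subread, featureCounts 1.5.3, with the mm10 build. Which annotation and strand setting the counting used is not given in the sources used here. Per the file headers, a mapping summary of the authors lists reads and the percent of pairs assigned to features. Their deposited comparison holds log2 CPM and log2 fold changes, an F statistic used as a score, and p-values with FDR. All sample columns of the count table were used, so that 0 were left out.

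The analysis used edgeR 4.0.16 in R 4.3.3, with filterByExpr, TMM scaling, a robust quasi-likelihood F test between fractions, and Benjamini-Hochberg adjustment over all genes tested, with a threshold of 0.05. CPM are counts over the TMM-scaled library size. The SE is the size of the log2 fold change over the square root of F, and SDs of log2 CPM used a prior count of 0.5. Shares are of reads, which are not independent molecules, and their counting error is small beside the spread between libraries. The procedure was checked on simulated data in which all libraries of a fraction shared the same mean levels. That check cannot speak to a library that shifts many genes together. DESeq2 1.42.0, other scalings and filters, a replicate block and leaving out libraries were alternatives. No libraries within a fraction agreed within sampling noise (chi-square of at least 59.7 per degree of freedom).

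The mouse numbers of the labels pair the libraries. For mice 1, 2 and 3 the deviations of the paired libraries from their fraction means had correlations of 0.24, 0.0029 and -0.06 over genes, which are not independent.

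The members and all lists were chosen with earlier results of these data known. The rule for named genes takes all members, Axin2, and of each list up to 4 genes with the smallest p among those that passed, or the 2 of highest mean CPM where none passed. Of 167 listed genes all were found, 1 under an older symbol. Gene models come from GENCODE M21 (GRCm38, which mm10 names) and promoters from RefSeq on GRCm38.p6; members without a promoter entry were not searched. Members overlapping another annotated gene were Fosl1, Jun, Junb, Jund, Atf3, Csrnp1, Dusp1, Dusp5 and Zfp36, whose reads may in part come from the partner.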

Additional observations from a re-analysis of the deposited data

How the results depend on the processing

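Over 19 alternative settings no member rose past the threshold in any, and the number that fell depended on which libraries were used. Leaving out 1 library or 1 mouse gave 2 to 32 lower members. All genes called then numbered 1711 to 4114. These settings gave median SDs of members of 0.136 to 1.34 within Axin2+ and 0.131 to 0.315 within Axin2-. Without both libraries of mouse 1, 2 or 3 there were 30, 2 and 2 lower members. All genes called in either direction were then 2522 of 16887, 1711 of 17179 and 2686 of 17100. Where an arm held 1 sample fewer, the spread was taken from the libraries left. With the mouse as a replicate block 14 were lower and 0 higher, against 1869 lower and 2085 higher of all 16896 genes tested. Rhob was lost and Egr2, Nr4a2 and Gadd45b gained. The log2 fold changes of Fosl1, Klf6 and Trib1 turned negative (-0.18, -0.23 and -0.22). Upper quartile scaling turned Trib1 (-0.014). Over settings with libraries left out, log2 fold changes ran from -1.87 to 1.42 for Fosl1, -1.07 to 0.89 for Klf6, -0.85 to 0.38 for Trib1, -0.42 to 1.26 for Ier3 and -1.82 to 0.25 for Dusp1. The cause of these turns was not tested, apart from the libraries left out. Scaling by library size alone gave 10 lower members, with 4828 of 16896 genes called in either direction, and moved the median log2 fold change of all genes to 0.16. The remaining settings gave 9 to 16, with 4329 to 6094 of all genes called in either direction. DESeq2 gave no adjusted p for Atf3, Nr4a1, Zfp36 and Csrnp1. Depth limits mainly Fosl1, which was near or below 1 CPM in 3 libraries.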

Other observations

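Among the other primary response genes, chemokines and a matricellular gene showed the split between Axin2+ libraries in an extreme form. They were chosen after their values were seen, and no test of the split was made. Cxcl2, a neutrophil chemokine, stood at 11.8, 0.926 and 6.82 CPM in the Axin2- libraries of mice 1, 2 and 3 and at 128, 0.868 and 1.005 CPM in the Axin2+ libraries. Cxcl1, its close relative, stood at 17.2, 4.40 and 6.67 CPM and 57.1, 0.227 and 0.968 CPM. For both, the Axin2+ library of mouse 1 was the highest of all 6 and the other pair lay at or near the lowest levels. Cyr61, a matricellular target of YAP and SRF, stood at 425, 212 and 218 CPM and 723, 32.2 and 23.5 CPM, with the same order. Ctgf, another matricellular gene of the list, lacked this form, at 34.3, 12.7 and 31.0 CPM and 56.4, 42.6 and 31.2 CPM. There the Axin2+ library of mouse 1 was 1.53 times the mean of the other pair. Hbegf, a ligand of the EGF receptor, stood at 35.9, 28.7 and 34.9 CPM and 212, 25.2 and 24.8 CPM. Its Axin2- libraries lay close to the low Axin2+ pair, so that only the Axin2+ library of mouse 1 stood apart.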
